A study of Homo sapiens with 10 samples.

Results

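The semaphorin, plexin, netrin and slit genes considered here are 39 human genes: 7 plexins, 20 semaphorins, 2 neuropilins, 2 roundabout (ROBO) receptors, 3 slits, 3 netrin receptors and 2 netrins. A region of open chromatin was counted for a gene when it overlapped the RefSeq gene body or the 20 kb on either side. This took in 39 of 19970 protein-coding genes. It held 526 of the 120452 regions called in a GATA6 degron line and 651 of the 157584 regions called in GATA6 knockout and unedited cells. No region fell in the windows of 2 members. Of the regions, 73.0% in the degron lists and 77.4% in the knockout and unedited lists touched the member's own gene body. Another 45 and 49 regions lay inside a different protein-coding gene and outside the member, so the window alone does not tie them to the member.

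Semaphorins, netrins and slits are extracellular cues first described as guides of growing axons. Semaphorins signal through plexins, with neuropilins as co-receptors for the secreted class, slits signal through ROBO receptors, and netrins through DCC and the UNC5 proteins. In gut and other epithelia the same proteins act in adhesion, migration, vessel growth and cell survival, and DCC takes its name from its deletion in colorectal carcinoma.

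The cells were DLD-1, an established line from a human colorectal adenocarcinoma, and their open chromatin was mapped by ATAC-seq, which cuts accessible DNA with a transposase. GATA6 is a zinc-finger transcription factor of the gut epithelium. There were 5 groups of 2 libraries. AID_aux cells carried GATA6 with an auxin-inducible degron (labelled GATA6-AID-IAA7, from positive clones) and received auxin for 12 h, at 500 µM IAA by the labels' protocol. AID_wash cells were the same degron line after the auxin had been washed out, with a time label that has no unit. AID_ctrl cells were the same line and carry the label +Auxin with 0 h and a control title. They are read here as untreated. KO cells had GATA6 disrupted by CRISPR/Cas9, and WT cells were unedited. All 3 degron groups carry the tagged GATA6, and the number of clones behind the degron or KO cells is not given in the labels. Whether the replicates came from separate cultures is not stated in the labels, so their spread may be technical. The peak lists hold no measure of GATA6 protein or RNA, so the depletion itself was not checked here.

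Each library has its own list of called peaks, and sequencing depth is unknown because no read counts are in the lists. Within the degron line the lists covered 56.7 to 70.2 Mb. The KO lists covered 65.2 and 58.1 Mb, against 46.4 and 33.0 Mb in the WT lists. Over the member regions, the overlap between replicates (regions called by both libraries as a share of those called by either) was 0.731 in AID_aux, 0.741 in AID_wash, 0.780 in AID_ctrl, 0.795 in KO and 0.533 in WT. WT replicate 2 therefore had the shortest list and shared the fewest member regions with its partner. A peak lay within 1 kb of either end of 8 to 11 of 12 colon epithelium markers in each library, and all 10 libraries had one at CDX2, EPCAM, CDH1, KRT8, KRT18, KRT19 and KRT20. The same held for 5 of 6 blood markers in both KO libraries and 3 in both WT libraries, the difference being PTPRC and HBB, and for 3 or 4 in the degron libraries. The part of these calls in the KO gains was not tested. Such a peak also lay at 2 to 4 of 7 fibroblast and endothelium markers and at 3 of 6 neuron and glia markers. CDH17, a colon marker, had no such peak in any library.

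The start sites of the members were examined first, because they are where the reference holds sequence. RefSeq (GRCh38.p14) start-site windows, 250 bases before to 50 after the start, matched 33 of the 39 members with 57 start sites. NRP1, NTN1, SEMA3A, SEMA6A, SEMA6B and UNC5B were not matched. A start site was called when a peak overlapped its window by at least 1 bp. All 10 libraries called 13 of the 57 sites (22.8%, against 38.0% of 22131 start sites of protein-coding genes), and none called 25 of them (43.9%, against 36.2%). PLXNA1, PLXNC1, SEMA3B, SEMA3F, SEMA3G, SEMA4B, SEMA4F, SEMA6C and NRP2 had a start site called in all 10 libraries. At PLXNC1 this was start site 2, and start site 1 was called in none. PLXNA4, PLXNB2, SEMA3D, SEMA3E, SEMA4D, ROBO1, ROBO2, SLIT2, SLIT3, UNC5C and DCC had no matched start site called in any library. A matched window need not hold the outermost 5′ end of its gene. Every matched window of PLXNA4, PLXNB2, SEMA3D, SEMA4D and ROBO2 lay inside the gene body, so their 5′ ends were not examined by these windows. Within 1 kb of either gene end, PLXNB2 had a peak in 6 libraries, SEMA4D in 9, SLIT3 in 10 and PLXNA4 in 1. The rest of these members had none there. The matched start of SLIT3 is the 5′ end of its gene body, and the nearest peaks lay 1017 to 48743 bp from it. The SLIT3 peaks within 1 kb of a gene end were therefore at its 3′ end. Among the unmatched members, SEMA6A, NRP1 and UNC5B had a peak within 1 kb of a gene end in all 10 libraries, and SEMA3A, SEMA6B and NTN1 had one in none. Start sites called in all 6 degron libraries had a median GC content of 73.0%, against 58.0% at sites called in none of the 10.

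**Figure D1:**
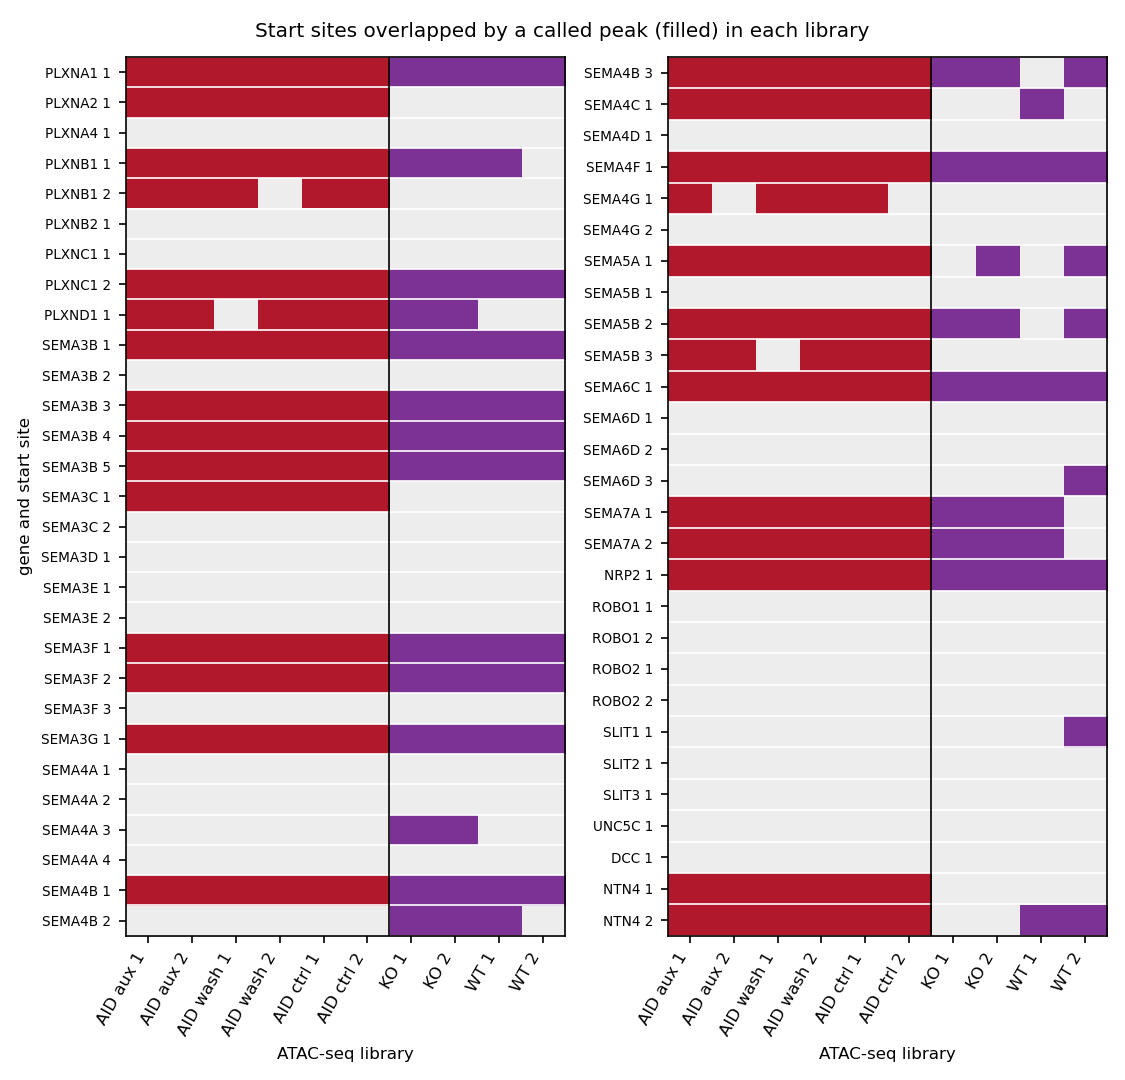
Calls at the 57 matched start sites (rows, gene and start-site number) in the 10 libraries (columns; red, degron libraries; purple, KO and WT libraries; grey, not called). Most rows are filled or empty across the degron libraries. Called in all 6 were 24 sites (42.1%, against 56.1% of start sites of protein-coding genes). Called in none of the 6 were 29, a share not computed for all genes.

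Of the 57 start sites, 2 were called by both KO libraries and neither WT library (3.51%, against 2.05% of the 22131 sites of protein-coding genes), and 1 by both WT libraries and neither KO library (1.75%, against 2.29%). PLXND1, the plexin that receives SEMA3E in vessels, was called at its start site by both KO libraries and neither WT library, and by 5 of the 6 degron libraries. The peaks reached only part of the window: 236 and 34 of its 300 bases in KO, and 13 to 45 bases in the degron libraries that called it. SEMA4A, a membrane semaphorin also known as an immune ligand, was called over all 300 bases of its start site 3 in both KO libraries, with the nearest WT peaks 7292 and 5854 bp from the start. No degron library called that site. NTN4, a netrin that binds laminin in basement membranes, had its start site 2 called by neither KO library, against 300 of 300 bases in both WT libraries. The nearest KO windows lay 791 and 753 bp from that start, and all 6 degron libraries called it, with the authors' fold enrichment between 6.23 and 7.07. The other 3 sequences were chosen after the values were seen. PLXNA2, a receptor for class 3 and class 6 semaphorins, had the only start site called in all 6 degron libraries that holds a GATA motif. SEMA3E, the secreted ligand of PLXND1, had the most GATA motifs, and SEMA4F, a membrane semaphorin, had the highest fold enrichment of these start sites (15.3 to 17.5 over the 6 degron libraries). The windows are printed 5′ to 3′ on the strand of the gene, with matches to the GATA motif in capitals.
PLXND1 start site 1, chr3:129606627-129606926, minus strand: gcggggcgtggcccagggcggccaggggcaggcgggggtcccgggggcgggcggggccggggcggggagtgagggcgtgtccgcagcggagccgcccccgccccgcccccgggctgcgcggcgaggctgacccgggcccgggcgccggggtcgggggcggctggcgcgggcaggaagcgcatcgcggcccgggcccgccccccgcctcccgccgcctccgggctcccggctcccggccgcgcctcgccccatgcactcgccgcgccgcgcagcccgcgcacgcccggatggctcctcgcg
SEMA4A start site 3, chr1:156153335-156153634, plus strand: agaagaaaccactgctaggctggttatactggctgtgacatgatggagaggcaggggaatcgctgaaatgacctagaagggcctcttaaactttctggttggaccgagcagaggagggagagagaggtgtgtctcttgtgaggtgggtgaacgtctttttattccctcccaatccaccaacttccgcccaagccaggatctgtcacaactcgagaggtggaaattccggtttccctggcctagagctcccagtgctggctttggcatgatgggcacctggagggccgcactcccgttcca
NTN4 start site 2, chr12:95791106-95791405, minus strand: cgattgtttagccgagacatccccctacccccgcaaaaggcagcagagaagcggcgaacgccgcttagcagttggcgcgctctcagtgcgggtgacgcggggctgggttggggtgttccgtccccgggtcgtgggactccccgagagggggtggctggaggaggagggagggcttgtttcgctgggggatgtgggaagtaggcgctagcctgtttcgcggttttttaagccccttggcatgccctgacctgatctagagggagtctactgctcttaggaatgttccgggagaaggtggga
PLXNA2 start site 1, chr1:208244335-208244634, minus strand: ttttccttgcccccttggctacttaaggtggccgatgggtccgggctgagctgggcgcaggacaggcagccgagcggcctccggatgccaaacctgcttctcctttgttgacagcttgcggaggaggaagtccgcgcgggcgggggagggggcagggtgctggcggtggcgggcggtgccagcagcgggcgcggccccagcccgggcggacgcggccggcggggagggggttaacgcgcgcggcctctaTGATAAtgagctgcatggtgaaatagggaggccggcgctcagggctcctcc
SEMA3E start site 1, chr7:83641382-83641681, minus strand: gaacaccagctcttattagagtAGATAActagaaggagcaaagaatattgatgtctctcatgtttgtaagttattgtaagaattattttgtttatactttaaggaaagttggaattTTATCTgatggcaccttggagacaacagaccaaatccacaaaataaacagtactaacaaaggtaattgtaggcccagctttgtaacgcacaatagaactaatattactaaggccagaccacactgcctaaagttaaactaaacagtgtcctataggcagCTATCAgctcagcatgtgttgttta
SEMA4F start site 1, chr2:74653997-74654296, plus strand: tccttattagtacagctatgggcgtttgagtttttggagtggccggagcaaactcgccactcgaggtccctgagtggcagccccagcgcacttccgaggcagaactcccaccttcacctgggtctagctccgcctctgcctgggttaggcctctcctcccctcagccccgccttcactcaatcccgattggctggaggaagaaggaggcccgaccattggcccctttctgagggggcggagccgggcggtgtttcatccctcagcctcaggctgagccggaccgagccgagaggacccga

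The GATA motif was searched on both strands as AGATAA, as TGATAA, and as either of these ending in G (AGATAG or else TGATAG). It was present in 10 of the 57 windows (17.5%, in 9 members), against 25.0% of all 35116 windows in the table. Of these 10 windows, 8 were called in no library, as were 25 of all 57 windows. That share was not computed over all windows with a match. Windows called in no library also had the lower median GC content (58.0%, against 73.0% for those called in all 6 degron libraries). What GC content contributes was not tested. Of the 10 windows, only that of PLXNA2 was called in all 6 degron libraries. Its TGATAA begins 1 base before the start base, which is counted as position 0. The PLXNA2 start site was called by neither KO nor WT libraries, whose nearest windows lay 148 and 141 bp away in KO and 173 and 664 bp away in WT. SEMA3E start site 1 held 3 matches, beginning at positions -228, -134 and 25, and was called in no library. The AP-1 motif, TGANTCA on both strands, was found in 1 of the 57 windows, at PLXNC1 start site 2, against 7.71% of all windows. PLXNC1 is the receptor of SEMA7A, and that start site was called in all 10 libraries. A match describes these letters in this window and is not evidence of binding.

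Away from the start sites, the members differed widely in how much open chromatin they held. The median member had 7.83 regions per 100 kb of window in the degron lists, against 6.85 for all protein-coding genes and 2.54 for the 314 genes longer than 500 kb. SLIT3, a secreted ligand of ROBO receptors with a 639 kb body (chr5:168661740-169301139), had 46 regions, the most of any member. PLXNA4 (chr7:132123340-132648688), a co-receptor with neuropilins for class 3 semaphorins, had 34, and SEMA5A, a membrane semaphorin, had 29. At the other end, DCC, the netrin-1 receptor, had 1 region in a 1200 kb body (0.0809 per 100 kb). Only 12 of the 314 long genes had fewer regions per 100 kb. ROBO2 had 2 regions in 1740 kb, SEMA6D 1 in 590 kb and ROBO1 3 in 1170 kb. Per 100 kb, SLIT3 and PLXNA4 had 6.77 and 6.01 regions, below the medians of the members and of all protein-coding genes. Among the 314 long genes, 298 had fewer per 100 kb than SLIT3 and 284 fewer than PLXNA4. Both ROBO receptors, also long genes, were nearly empty. The matched start sites of SLIT3, PLXNA4, ROBO1 and ROBO2 were called in no library. Those matched for PLXNA4 and ROBO2 did not hold the 5′ end of the gene body.

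**Figure D2:**
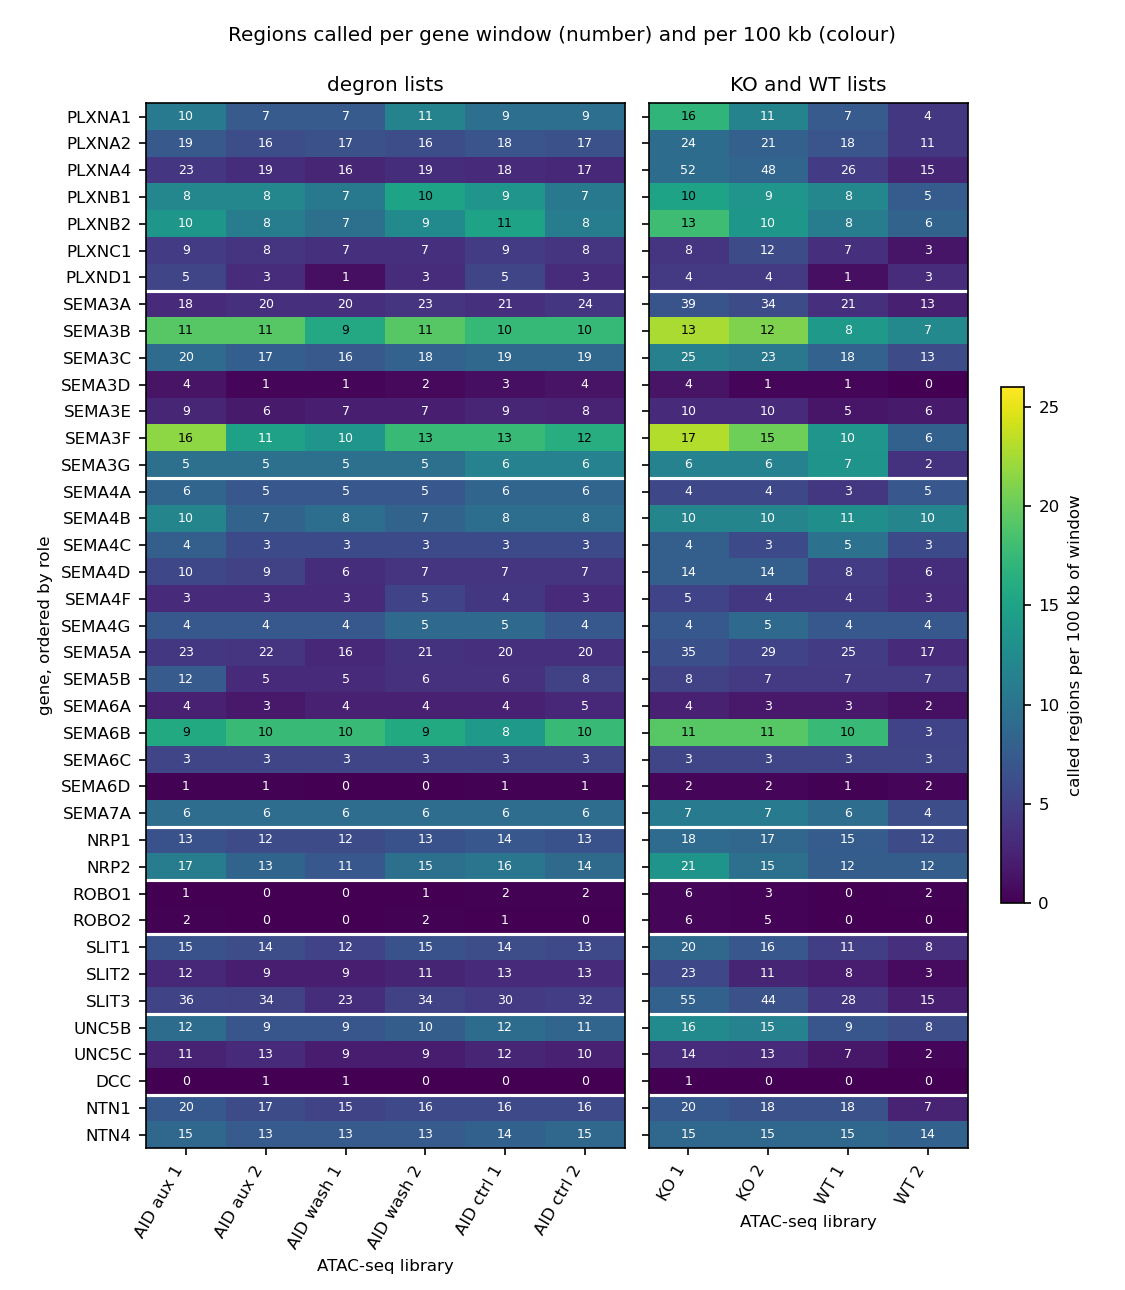
Regions called in the window of each member (rows, ordered by role and separated by white lines) in the 6 degron libraries (left) and the KO and WT libraries (right). Numbers are regions called and colour is regions called per 100 kb of window. DCC, ROBO1, ROBO2 and SEMA6D stay dark in every library, and the KO columns of PLXNA4 (52 and 48 regions) and SLIT3 (55 and 44) exceed the WT columns (26 and 15, and 28 and 15).

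The 5 member regions with the highest mean fold enrichment in AID_ctrl were called in all 10 libraries. Fold enrichment is the authors' value for the peak within its own list, so it ranks peaks within a list and is given here as a description. The highest lay in an intragenic position of PLXNA2, 112 kb from the start (chr1:208131767-208133000), with 22.3 and 20.7 in AID_aux, 16.1 and 19.2 in AID_wash, and 18.9 and 19.8 in AID_ctrl. SLIT3 followed at chr5:169139392-169140739, with 17.1 and 15.8 in AID_aux, 17.7 and 17.9 in AID_wash, and 17.4 and 15.4 in AID_ctrl. SEMA3A, a secreted repellent of axons, had 24.7 and 19.8 in AID_aux, 13 and 15.7 in AID_wash, and 17.4 and 15.1 in AID_ctrl at chr7:84302805-84303876. At both the PLXNA2 and the SEMA3A region the AID_aux values lay above all 4 others, which sets values of different lists side by side and was not tested. The remaining regions were at SEMA4C, inside the neighbouring gene FAM178B (chr2:96887919-96889263), and at the start of SEMA4F (chr2:74653561-74654901).

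The comparison of KO with WT asks which member regions differ after lasting loss of GATA6. A region counted as gained when called by both KO libraries and neither WT library, as lost when called by both WT libraries and neither KO library, and as retained when called by all 4. Open chromatin was gained at 153 of 651 member regions (23.5%, in 32 of 39 genes), against 19.5% of all regions. By gene, 82.1% of members had a gained region, against 63.0% of all protein-coding genes and 93.3% of those over 500 kb. Open chromatin was lost at 9 (1.38%, in 5 genes), against 1.24% of all regions, and 201 were retained. The gains moved with the length of the lists: KO libraries called 567 and 490 of the 651 member regions, against 358 and 246 in WT libraries. What list length contributed to the gains was not tested. In bulk material, fewer cells with a region open and less opening per cell cannot be told apart. The members' share of the called length was 0.435 and 0.421% in KO libraries and 0.391 and 0.376% in WT libraries. This share had the same order as the length of these 4 lists, so it cannot be told apart from list length. Both KO values were above both WT values (0.428 ± 0.0101% in KO and 0.383 ± 0.0101% in WT, SD, n = 2 each). The difference of 0.0446 percentage points had p = 0.333 by a two-sided exact permutation test, the smallest p that 2 libraries against 2 allow.

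The most gained regions were at 4 long genes. PLXNA4 gained 23 of its 63 regions (36.5%), and of 19970 protein-coding genes 3 had more gained regions. KO libraries called 52 and 48 regions at PLXNA4, against 26 and 15 in WT libraries. SLIT3 gained 16 of 62, with 55 and 44 called in KO libraries, against 28 and 15 in WT libraries. SEMA3A gained 14 of 42, with 39 and 34 called in KO libraries, against 21 and 13 in WT libraries. UNC5C, a netrin-1 receptor that triggers cell death when unbound, gained 9 of 16, with 14 and 13 called in KO libraries, against 7 and 2 in WT libraries. In all 4 genes both KO libraries called more regions than either WT library, an order that picking genes by their gains favours. It was not particular to them. PLXNA1 had it too (16 and 11 in KO, 7 and 4 in WT), and SEMA4B did not (10 and 10 in KO, 11 and 10 in WT). Together these genes held 62 of the 153 gains (33.9% of their 183 regions), and the other 35 members held 91 of 468 regions (19.4%). These 4 were picked for having the most gains, which by itself lowers the share in the rest, so the split is a description. For scale, regions in the windows of the 314 genes over 500 kb were gained at 23.2%.

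**Figure D3:**
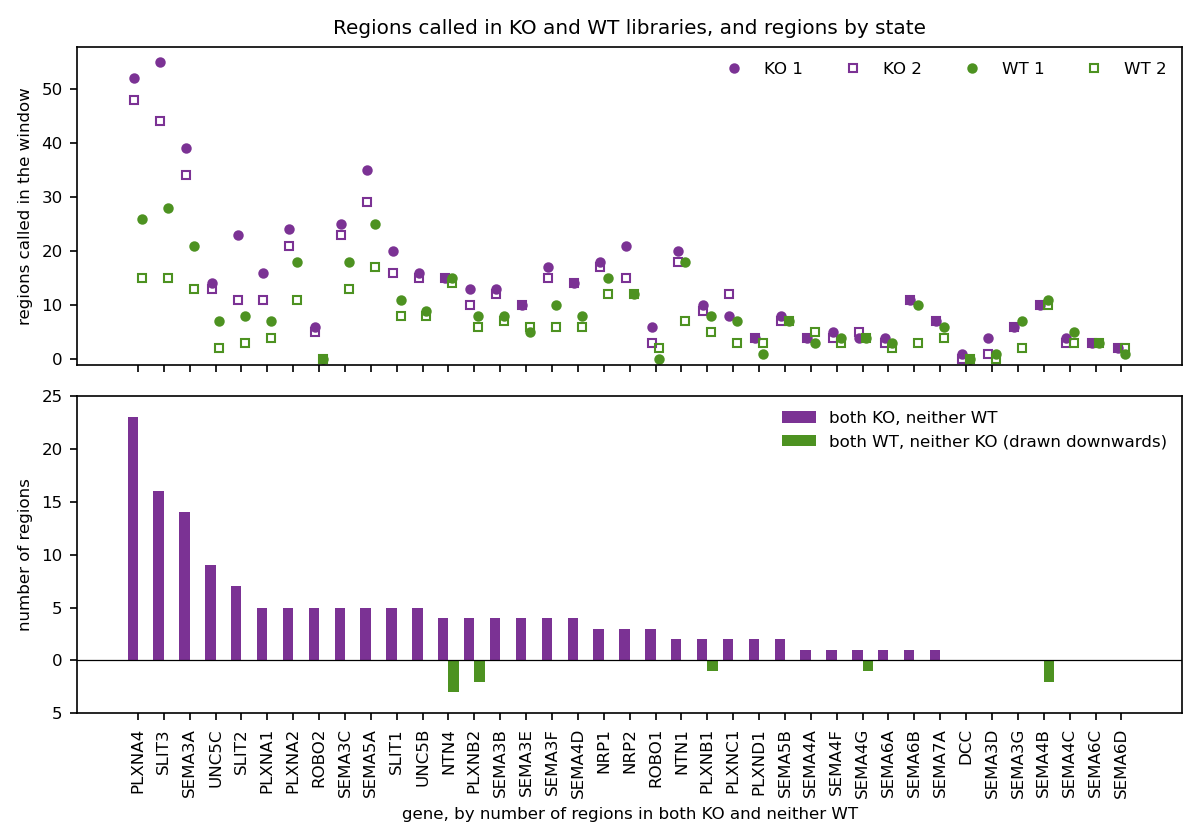
Top, regions called in each member's window by the 2 KO (purple) and 2 WT (green) libraries (filled circle, replicate 1; open square, replicate 2). Bottom, regions called by both KO and neither WT library (bars upwards, from 0) and by both WT and neither KO library (bars downwards). PLXNA4, SLIT3, SEMA3A and UNC5C lead with 23, 16, 14 and 9 gained regions, and NTN4 has the most lost regions, 3.

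By role, the receptors included the highest shares of gained regions. The slit receptors gained 8 of 14 regions (57.1%), with 5 of 6 at ROBO2, where KO libraries called 6 and 5 regions and WT libraries called none. The netrin receptors gained 14 of 34 (41.2%), 9 at UNC5C, 5 at UNC5B and none of the 1 region at DCC. The plexins gained 43 of 153 (28.1%), the slits 28 of 109 (25.7%) and the secreted semaphorins 31 of 121 (25.6%). Netrins (6 of 41, 14.6%), neuropilins (6 of 45, 13.3%) and membrane semaphorins (17 of 134, 12.7%) were below the 19.5% of all regions. SLIT2, the slit best known as a ROBO1 ligand, gained 7 of 26, and PLXNA1, PLXNA2, SEMA3C, SEMA5A, SLIT1 and UNC5B gained 5 each. DCC, SEMA3D, SEMA3G, SEMA4B, SEMA4C, SEMA6C and SEMA6D gained none.

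The gained regions lay mostly inside the genes and away from their ends, as did the member regions in general. Of the 153 gained regions 126 touched the gene body, as did 77.4% of all member regions in these lists. Of member regions more than 1 kb from any gene end, 146 of 576 (25.3%) were gained, against 21.0% of all such regions. Of those within 1 kb, 7 of 75 (9.33%) were gained, against 8.29% of all. Over the 33 members with a known strand, the share gained was 13.6% upstream, 22.7, 26.5 and 28.8% in the first, middle and last of 3 equal parts of the gene body, and 20.3% downstream. Without PLXNA4, a view added after seeing the data, the 3 parts of the body had 22.4, 25.9 and 23.5%, so the order rested on that gene. The shares by part were not computed for all genes, so they show nothing particular to the members. PLXNA4 itself had 4 of 16, 6 of 20 and 12 of 23 regions gained over the same 3 parts. SLIT3 had 6 of 18, 7 of 21 and 2 of 18 gained. Most gained regions were not close to a WT window: 19 of 153 (12.4%) had one within 1000 bp, and the median distance was 7009 bp. These distances were not computed for all KO-gained regions, so they show nothing particular to the members. In the degron line, 29 of the 153 (19.0%, against 24.4% of all KO-gained regions) were called by both AID_ctrl libraries, and 73 (47.7%, against 41.1%) by no degron library. PLXNA4 had 16 of its 23 gained regions in no degron list and 1 in both AID_ctrl lists. UNC5C had 1 of 9 in no degron list and 3 of 9 in both AID_ctrl lists.

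**Figure D4:**
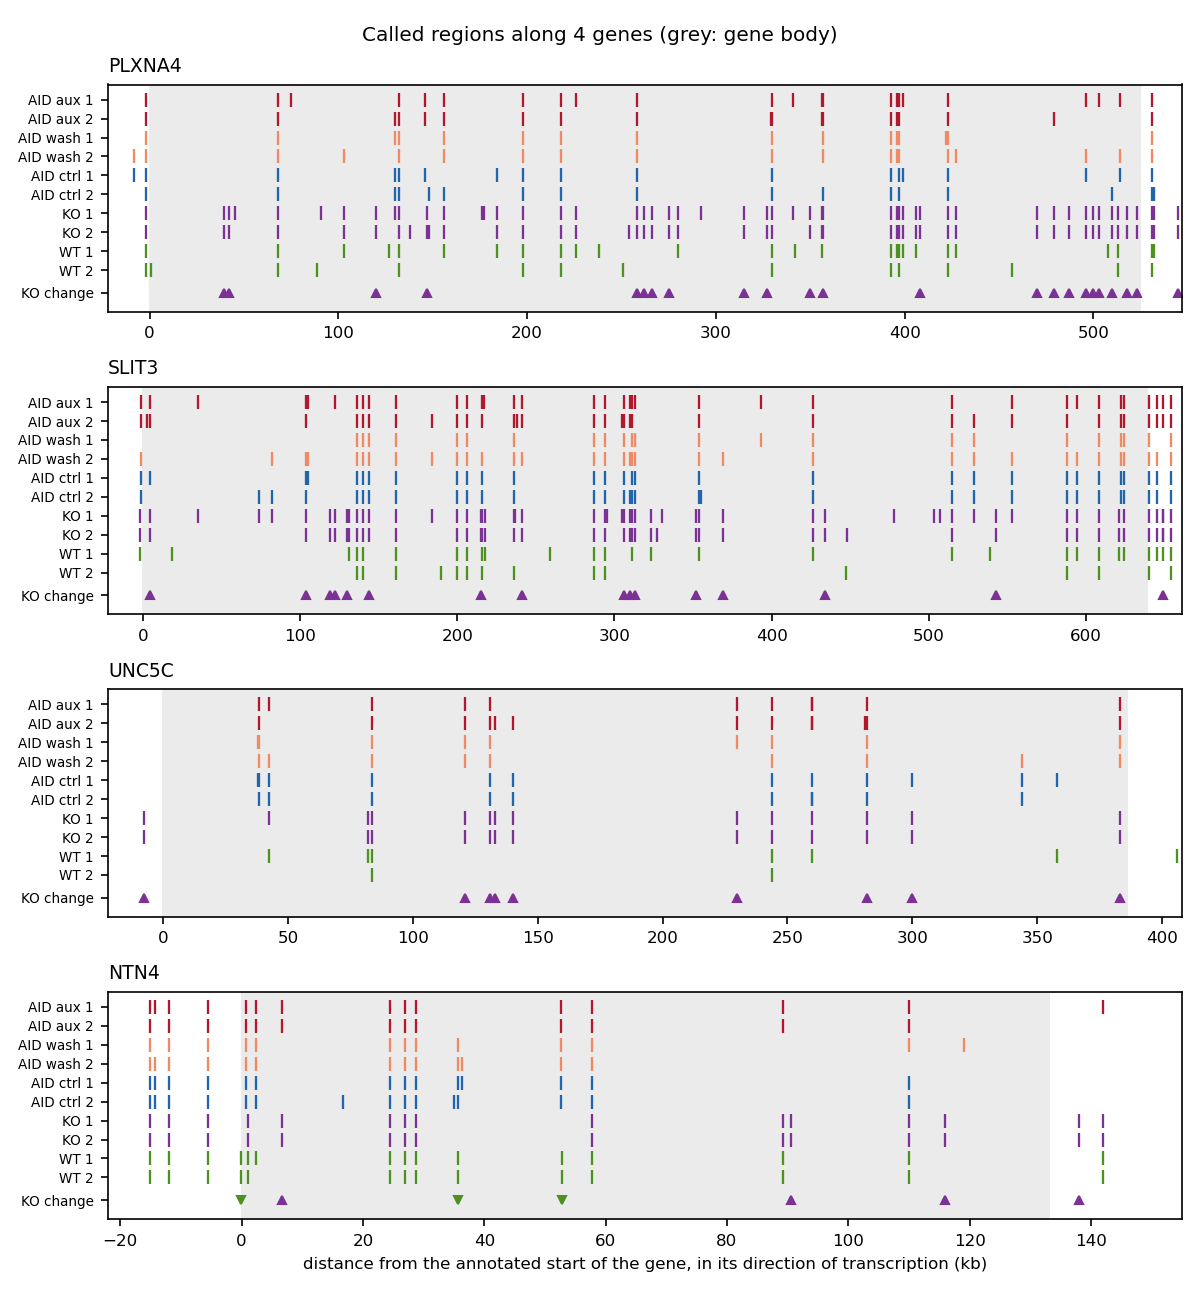
Regions called along PLXNA4, SLIT3, UNC5C and NTN4 by distance from the 5′ end of the gene body (kb), 1 row per library (red, AID_aux; orange, AID_wash; blue, AID_ctrl; purple, KO; green, WT), with the gene body in grey. Bottom rows mark regions gained (purple, upwards) and lost (green, downwards) in KO against WT. The last part of PLXNA4 holds 12 of its 23 gained regions, and NTN4 has 3 lost regions.

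Without WT replicate 1, the library with the longer WT list, 259 member regions (39.8%) counted as gained, against 35.3% of all, and without KO replicate 2 the count was 237 (36.4%), against 31.5% of all. SLIT3 then had 29 gained regions in either case.

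The 9 lost regions were at NTN4 (3), PLXNB2 (2), SEMA4B (2), PLXNB1 (1) and SEMA4G (1). PLXNB1 and PLXNB2 are receptors of class 4 semaphorins, to which SEMA4B and SEMA4G belong. All 9 were called by both AID_ctrl libraries, against 62.8% of all KO-lost regions. In 7 of the 9 a KO window lay within 1000 bp, as close as 45 bp at PLXNB2. This share was not computed for all KO-lost regions. Merging peaks over all 10 lists joined such neighbours and left 2 lost regions (0.282%, against 0.784% of all regions), both in the body of NTN4. They are chr12:95738038-95738744, with the nearest KO windows 4461 and 4342 bp away, and chr12:95755251-95755883, with the nearest 6275 and 6241 bp away. The 2 differed in the degron line: all 6 degron libraries called chr12:95738038-95738744, whereas neither AID_aux library called chr12:95755251-95755883. The degron region over the first of them (chr12:95737714-95739117, 52.7 kb from the start of NTN4) had a fold enrichment of 5.46 and 5.40 in AID_aux, 9.27 and 9.46 in AID_wash and 10.0 and 9.56 in AID_ctrl. Both AID_aux values were below all 4 others, and its percentiles in the lists were 44.7 and 37.5 in AID_aux, 83.9 and 85.8 in AID_wash and 89.7 and 89 in AID_ctrl. This region was singled out after its values were seen. Without WT replicate 1 the lost count was 34 (5.22%, against 6.96% of all regions), and without WT replicate 2 it was 37 (5.68%, against 7.16%).

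The comparison of AID_aux with AID_ctrl asks what 12 h of auxin changed. The shares of member regions that differed were close to those of all regions. AID_aux libraries called 416 and 356 of the 526 member regions, AID_wash libraries 317 and 374, and AID_ctrl libraries 385 and 375. With auxin 14 member regions were lost (2.66%, in 14 genes), against 2.27% of all regions, and 18 were gained (3.42%, in 13 genes), against 2.47% of all, while 290 were retained. Strong regions had their best peak among the top 50% by the authors' −log10 p in each of the 2 lists that called them, and numbered 0 lost and 0 gained among the members, against 0.158% and 0.0083% of all regions. With the top 70% as the limit, 2 of the 526 were lost and 5 gained, against 0.521% and 0.199% of all regions. The members' share of the called length was 0.426 and 0.409% in AID_aux and 0.421 and 0.414% in AID_ctrl, and the ranges overlapped (difference -9.47e-05 percentage points, two-sided exact permutation p = 1.0). Lost and gained regions were weak in the lists that called them. Their median percentile by −log10 p was 19.5 for lost, 19.9 for gained and 68.4 for retained regions.

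**Figure D5:**
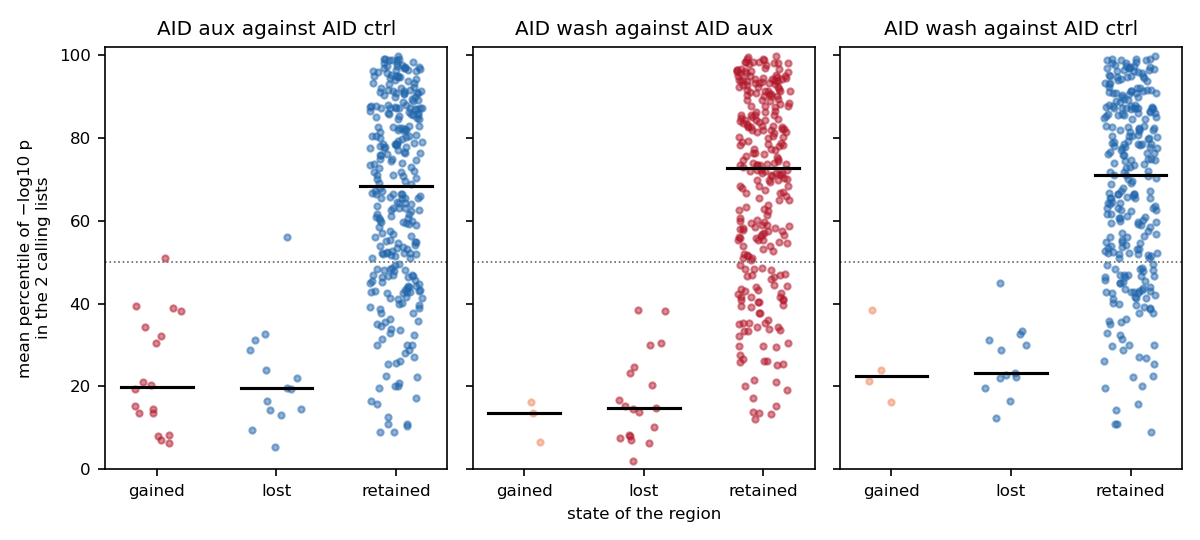
Mean percentile of the −log10 p of each member region in the 2 lists that called it (lost and retained regions, lists of the second-named group; gained regions, lists of the first-named group), for the 3 comparisons in the degron line. Points are regions, horizontal lines medians, and the dotted line the 50th percentile. Retained regions centre on 68.4 to 72.7, and the medians of lost and gained regions lie between 13.6 and 23.2.

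NTN4 had the highest ranked lost region, in the gene body 35.7 kb from the start (chr12:95755178-95755789). It was called in neither AID_aux library, with a fold enrichment of 5.05 and 4.17 in AID_wash and of 7.31 and 10.0 in AID_ctrl. Its mean percentile in the AID_ctrl lists was 56.0. Next was NRP2, the neuropilin for SEMA3F and for vascular growth factors, at chr2:205776136-205776361, which was called in no AID_aux or AID_wash library and had 5.59 and 4.77 in AID_ctrl. PLXNB2 (chr22:50306987-50307326) and SEMA3G (chr3:52447170-52447329) were likewise called only in AID_ctrl among the degron libraries, at 2.51 and 2.56, and at 2.4 and 2.58. SLIT2 lost a region 373 kb from its start, beyond its 3′ end (chr4:20624888-20625263), with no call in AID_aux, 3.87 in AID_wash replicate 2 and 4.70 and 4.19 in AID_ctrl. SEMA3C, a secreted semaphorin, completed the highest 6 with 3.65 and 4.59 in AID_ctrl (chr7:80783957-80784307). The other 8 lost regions, 1 each at SEMA4A, SEMA3D, UNC5C, PLXND1, SEMA6B, SEMA3E, NRP1 and SEMA3A, were at or below the percentile of 19.7.

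Among gained regions, SEMA6B had the highest rank, at chr19:4523190-4523715, inside the neighbouring gene PLIN5. It had 5.79 and 6.65 in AID_aux, 4.53 in AID_wash replicate 1 and no call in AID_ctrl. PLXNA4 gained a region 396 kb from its start (chr7:132252378-132252697), with 3.51 and 3.85 in AID_aux, 3.00 and 2.84 in AID_wash and none in AID_ctrl. SEMA3B, a secreted semaphorin, gained one inside GNAI2 (chr3:50248373-50248684), at 2.42 and 2.83 in AID_aux. NTN4 gained one 6.67 kb from its start (chr12:95784356-95784610), at 4.47 and 5.99 in AID_aux alone. NTN1, the canonical netrin, gained one at chr17:9060877-9061330, with 5.71 and 6.12 in AID_aux. UNC5C had 3 gained regions, more than any other member. The strongest, 383 kb from its start (chr4:95165828-95166434), had 4.71 and 6.99 in AID_aux, 6.44 and 5.99 in AID_wash and no call in AID_ctrl. PLXNA4, NTN4 and SEMA4D, the ligand of PLXNB1, had 2 gained regions each. Leaving out 1 library of either group gave 24 to 39 lost (4.56 to 7.41%, against 3.29 to 6.58% of all) and 25 to 63 gained regions. The largest count, 63 gained (12.0%, against 9.62% of all), came without AID_aux replicate 2. The gained share fell below that of all regions without AID_ctrl replicate 1 (4.75%, against 5.37%) and stayed above it without each other library.

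After the wash, AID_wash was compared with AID_aux and with AID_ctrl. These comparisons share libraries with each other and with the one above, so their counts are not independent. Against AID_aux, 19 member regions were lost (3.61%), against 3.24% of all regions, and 3 were gained (0.57%), against 1.13% of all. Strong regions numbered 0 in both directions, against 0.0083% lost and 0.0672% gained of all regions. The 3 gained regions were those of NTN4 at 35.7 kb, SEMA4A (chr1:156183975-156184958) and SEMA6B (chr19:4558398-4558579), all of them lost with auxin. SEMA4A had no call in AID_aux, 4.27 and 4.49 in AID_wash and 4.59 and 4.75 in AID_ctrl. SEMA6B had no call in AID_aux, 3.75 and 2.84 in AID_wash and 3.92 and 3.01 in AID_ctrl. Of the 14 regions lost with auxin, 3 were called by both AID_wash libraries (21.4%, against 32.4% of all auxin-lost regions), 7 by 1 and 4 by none (28.6%, against 32.0%). Of the 18 gained with auxin, 3 were called by both AID_wash libraries (16.7%, against 9.78% of all auxin-gained regions), 6 by 1 and 9 by none (50%, against 50.8%).

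The highest ranked region lost after the wash was in NRP2 (chr2:205716167-205716530), with no call in AID_wash, 5.71 and 6.99 in AID_aux and 5.12 in AID_ctrl replicate 1. It was followed by the NTN4 region at 6.67 kb and by SEMA5A (chr5:9150009-9150313), which had 6.72 and 4.81 in AID_aux and no call elsewhere in the degron line. UNC5C (chr4:95288421-95289058) was called in AID_aux at 4.71 and 6.56 and in AID_ctrl at 5.48 and 5.70, but not in AID_wash. PLXNB2 (chr22:50307516-50307707) had 2.63 and 2.18 in AID_aux and 3.01 and 2.87 in AID_ctrl, and SLIT3 (chr5:169296344-169296739) 4.54 and 5.43 in AID_aux. UNC5C, NTN4, PLXNA4, SEMA4D, SEMA5A and SLIT1 lost 2 regions each in this comparison. With lists cut to equal length, 9 were lost (2.07%, against 2.05% of all regions) and 12 gained (2.76%, against 2.19%). The excess of losses did not hold there.

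Against AID_ctrl, AID_wash lost 13 member regions (2.47%), against 2.41% of all, and gained 4 (0.76%), against 0.619% of all. With lists cut to equal length, 14 were lost (3.22%, against 1.5% of all regions). Strong regions again numbered 0 lost and 0 gained, against 0.00581% and 0.0% of all regions. PLXNB2 had the highest ranked loss (chr22:50307516-50307707), and PLXNB2, SEMA3C and UNC5C lost 2 regions each. SLIT2 lost one in its body (chr4:20544590-20545055), with no call in AID_wash and 6.58 and 5.29 in AID_ctrl. The next 4 were the NRP2, PLXNB2 and SEMA3G regions lost with auxin, and the UNC5C region at chr4:95288421-95289058. The 4 gained regions were 2 at UNC5C (chr4:95165828-95166434 and chr4:95427596-95427875), 1 at PLXNA4 (chr7:132252378-132252697) and 1 at SEMA6A (chr5:116578775-116578956), a membrane semaphorin. The UNC5C and PLXNA4 regions were called in both AID_aux and both AID_wash libraries and in neither AID_ctrl library. The UNC5C region at chr4:95427596-95427875 had 4.03 and 4.81 in AID_aux and 5.05 and 4.17 in AID_wash. The members' share of the called length was 0.417 and 0.412% in AID_wash, within the range of the other degron libraries.

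Changes with auxin and in KO were then set side by side, in libraries the 2 comparisons do not share. The NTN4 region 35.7 kb from the start was the 1 member region lost in both. It was called in both WT, both AID_ctrl and both AID_wash libraries and in no KO or AID_aux library. This is 1 of 14 auxin-lost member regions (7.14%, against 7.88% of all auxin-lost regions) and 1 of 9 KO-lost ones (11.1%, against 11% of all). Of the 18 regions gained with auxin, 9 overlapped a region gained in KO (50%, against 37.2% of all auxin-gained regions). They overlapped 9 of the 153 KO-gained member regions (5.88%, against 3.58%). The 9 included all 3 auxin-gained regions of UNC5C. The 5 of highest rank were those of SEMA6B in PLIN5, SEMA3B in GNAI2, NTN4 at 6.67 kb, UNC5C at 383 kb and SEMA5A. Those of PLXNA2 (chr1:208048936-208049235) and SLIT3 (chr5:169059751-169060384) and the other 2 of UNC5C (chr4:95318431-95318755 and chr4:95427596-95427875) made up the rest. None of the 14 auxin-lost member regions was gained in KO, against 14.8% of all auxin-lost regions, and none of the 18 auxin-gained ones was lost in KO, against 0.269% of all.

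Other genes of these pathways were counted the same way, from lists drawn up with earlier results of these data known. Of 12 further ligands and receptors, 11 gained a region in KO, against 63.0% of all protein-coding genes. Their gained regions numbered 31 of 112 (27.7%, against 19.5% of all regions), and 2 regions were lost, both at NTN5. DSCAM, a netrin receptor, gained 6 of 24, and NEO1, a DCC relative, UNC5A and NTNG1 gained 4 each. UNC5D gained 2 of 3 and NTN5 1 of 11. With auxin, 1 of their 91 degron regions was lost, at UNC5D, and none was gained. Of 45 co-receptors and intracellular effectors, 39 gained a region in KO, 118 of 725 regions (16.3%, below the 19.5% of all regions), and 9 regions were lost (1.24%). FARP1, a plexin-linked exchange factor, gained 6 of 36, and the kinase PAK1 6 of 19. The exchange factors DOCK1 and TRIO gained 6 of 22 and 6 of 32, and SRGAP1, which binds ROBO1, gained 6 of 27. CRTAC1 gained 5 of 19. With auxin, 13 of the effectors' 587 degron regions were lost (2.21%) and 10 gained (1.70%), including 2 gained at PAK1 and 2 at CRTAC1. These shares, like those of the members, were near the 2.27% and 2.47% of all regions.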

How the data were processed

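ATAC-seq peak lists of 10 libraries were used, 2 in each of 5 groups. The submitters' processing notes name the build hg38 and the tools MACS2 2.1.1, Bowtie2 2.4.2, Trim Galore 0.6.10 and Picard, without parameters. Peaks were listed per library. The 6 deposited degron lists give a score per peak (10 times −log10 p, at most 1000), a fold enrichment ratio, and −log10 p and −log10 q, which served for ranks and filters inside one list and are set side by side across lists as a description. The 4 deposited KO and WT lists hold other columns only, the coordinates of 500 bp windows. How the transposase offset was handled is not given in the sources used here. With no counts, no interval of counting error can be given.

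Touching or overlapping peaks (autosomes and X) were merged, within the degron lists and within the KO and WT lists (pandas 2.3.3, NumPy 2.4.6). A library called a region at an overlap of 1 bp. The calling step was tested on simulated lists of isolated 500 bp peaks. That test does not cover close neighbours or peaks of unequal width. Shares of called length were compared by exact permutation. Gene bodies and start-site sequences came from RefSeq (GRCh38.p14).

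The members and lists were chosen with earlier results of these data known. Named were members with most lost or gained regions (up to 10, at least 2), up to 6 lost and 6 gained degron regions of highest rank per comparison, up to 5 shared changes, and the 5 regions of highest fold enrichment in AID_ctrl. Alternatives were other windows (gene body alone, 50 kb), overlaps, merging, −log10 q of at least 10, equal list lengths, other limits for strong regions, each library left out and, added after seeing the data, the 4 members with most gains left out, and PLXNA4 left out of the shares along the gene body.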

Additional observations from a re-analysis of the deposited data

How the results depend on the processing

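No p was given for counts of regions, since an exact permutation of 2 libraries against 2 cannot go below 0.333. Splitting the genome into fixed 500 bp windows divides longer regions. For AID_aux against AID_ctrl it gave 38 lost (2.9%, against 2.73% of all windows) and 37 gained (2.82%, against 2.31%). For AID_wash against AID_aux it gave 44 lost (3.36%, against 3.3%) and 16 gained (1.22%, against 1.38%). For AID_wash against AID_ctrl it gave 38 lost (2.9%, against 2.96%) and 12 gained (0.915%, against 0.76%). For KO against WT it gave 27 lost (1.95%, against 2.08%) and 308 gained (22.3%, against 18.7%). Requiring peaks to cover 50% of a region gave 8 gained for AID_wash against AID_aux (1.52%, against 1.67% of all regions). It gave 26 lost for AID_wash against AID_ctrl (4.94%, against 4.11%). A −log10 q of at least 10 gave 5 gained for AID_aux against AID_ctrl (1.6%, against 1.99% of all regions). For AID_wash against AID_aux it gave 9 lost (2.88%, against 2.51%) and 5 gained (1.6%, against 1.34%). For AID_wash against AID_ctrl it gave 2 gained (0.639%, against 0.539%). In both comparisons with AID_aux the order of the gained shares was the reverse of the main setting. Equal list lengths gave 9 lost (2.07%, against 2.05%) and 12 gained (2.76%, against 2.19%) for AID_wash against AID_aux. For AID_wash against AID_ctrl they gave 14 lost (3.22%, against 1.5% of all regions). Merging over all 10 lists left 2 lost for KO against WT (0.282%, against 0.784% of all regions). With the top 70% as the limit, strong regions for AID_aux against AID_ctrl numbered 2 lost and 5 gained (0.521% and 0.199% of all regions). For AID_wash against AID_aux 2 were lost (0.271% of all regions). For AID_wash against AID_ctrl 2 were lost and 1 gained (0.183% and 0.0282% of all regions). The top 30% gave 0 in each. Without PLXNA4, SLIT3, SEMA3A and UNC5C, KO against WT had 91 gained. The cause of these shifts was not tested beyond what each alternative does by construction.

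Leaving out 1 library at a time, AID_aux against AID_ctrl had 24 to 39 lost (4.56 to 7.41%, against 3.29 to 6.58% of all). It had 25 to 63 gained (4.75 to 12.0%, against 4.67 to 9.62%). AID_wash against AID_aux had 26 to 75 lost (4.94 to 14.3%, against 4.36 to 11.5%) and 7 to 29 gained (1.33 to 5.51%, against 1.72 to 6.19%). AID_wash against AID_ctrl had 21 to 46 lost (3.99 to 8.75%, against 3.45 to 8.76%) and 9 to 28 gained (1.71 to 5.32%, against 1.64 to 6.17%). KO against WT had 9 to 37 lost (1.38 to 5.68%, against 1.44 to 7.16%) and 161 to 259 gained (24.7 to 39.8%, against 20.2 to 35.3%). The member share was above that of all regions in every case for losses in AID_aux against AID_ctrl and for gains in KO. It was below in every case for losses in KO, unlike in the main setting. For the other counts the order changed with the library left out. The most extreme counts came without AID_aux replicate 2 (63 gained, 75 lost), AID_ctrl replicate 2 (39 lost), AID_wash replicate 1 (29 and 28 gained), AID_wash replicate 2 (46 lost) and WT replicate 2 (37 lost) or 1 (259 gained). With 1 library left out, strong regions for AID_aux against AID_ctrl ranged over 0 to 1 lost and 0 to 1 gained. The shares of all regions were 0.222 to 0.389% and 0.0432 to 0.0996%. For AID_wash against AID_aux there were 0 to 2 lost and 0 to 1 gained (0.0365 to 0.355% and 0.0971 to 0.193% of all). For AID_wash against AID_ctrl there were 0 to 1 lost and 0 gained (0.0266 to 0.247% and 0.00332 to 0.0299% of all).

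For the share of called length, KO against WT kept its sign in all 8 alternatives (0.0374 to 0.0518). In the degron line the sign depended on the setting. AID_aux against AID_ctrl was 0.00106 for gene bodies alone, 0.00312 with 50 kb either side and -0.00862 to 0.00843 without single libraries. AID_wash against AID_aux was 0.00166 with 50 kb, 0.00365 over peak lines and -0.0115 to 0.00554 without single libraries. AID_wash against AID_ctrl was 0.00478 with 50 kb and -0.00652 to 0.000369 without single libraries. With the replicate block the differences were the same, 0.0446 for KO against WT with an exact permutation p of 0.5, the smallest that 2 pairs allow. The numbers name libraries and no label says that they pair samples. No paired analysis was possible for the counts because they come from no test.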
